A study of Homo sapiens with 9 samples.

Results

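The genes described are 35 genes of homologous recombination and of the Fanconi anaemia pathway, measured as messenger RNA in the immortalised human hepatic stellate cell line LX2, a culture model of the liver cell type that lays down scar collagen. They were chosen as a list of gene symbols by a rule that uses no measured value, although earlier results of these libraries were known when it was drawn up. All 35 symbols matched an Ensembl ID among the 36601 genes in the files, and all 35 passed the filter on low counts that left 15560 genes for testing. The cells had been transfected with 20 nM of an siRNA against YAP (siYAP), an siRNA against TAZ (siTAZ) or a non-targeting siRNA (siNT) and were kept for 7 days. Each group held 3 libraries, all of the same line, and all had gone through transfection. YAP (gene YAP1) and TAZ (gene WWTR1) are related coactivators of transcription that act mainly with the TEAD family of DNA-binding proteins. The study asked how depletion of either coactivator changes the cells' transcripts. Neither the sequences of the siRNAs nor their number per reagent is given in the sources used here.

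Homologous recombination repairs a broken chromosome by copying the intact sister chromatid. The MRN complex (MRE11, RAD50 and NBN) binds the break, nucleases cut the ends back to single strands, and BRCA1, PALB2 and BRCA2 help the single strands to invade the sister, while the kinases ATM and ATR signal the damage. The Fanconi anaemia pathway acts on crosslinks between DNA strands: a core ubiquitin ligase complex modifies the FANCD2 and FANCI pair, which recruits nucleases and recombination factors. Many of these genes are transcribed mainly in the S and G2 phases of the cell cycle, and inherited loss of several of them causes cancer predisposition or Fanconi anaemia.

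The libraries held 16498508 to 18752805 counts in genes. A floor of 3 counts was worth 0.157 to 0.177 CPM, the unit of all levels below, which is counts scaled to a common library size with TMM factors. This floor covers counting error only. The counts of the 35 genes lay between 27 and 3922 per library. The check of the targeted genes followed the labels: YAP1 averaged 26.3 ± 1.49 CPM in siYAP libraries and 209 ± 4.11 CPM in siNT libraries, and WWTR1 averaged 9.53 ± 0.917 CPM in siTAZ libraries and 61.999 ± 5.498 CPM in siNT libraries (SD, n = 3 each). Of 12 stellate cell markers, LRAT, the retinol-esterifying enzyme of vitamin A storage, was at 0 in every library and DES was under 1 CPM. The 12 summed to 5035 to 5122 CPM in siYAP, 14816 to 14917 CPM in siTAZ and 10186 to 10309.6 CPM in siNT libraries, and of the 10 tested 3 were higher and 7 lower after siYAP and 5 higher and 2 lower after siTAZ. Among all tested genes 33.8% were higher and 33.4% lower after siYAP, and 16.4% higher and 18.2% lower after siTAZ. Summed levels of 6 hepatocyte markers were 12.8 to 16.02 CPM in siYAP, 0.704 to 2.13 CPM in siTAZ and 1.899 to 2.004 CPM in siNT libraries, with SERPINA1 making up most of the siYAP sum and TTR at 0 throughout. The sums of 6 leukocyte markers were 11.95 to 14.8, 9.56 to 12.2 and 12.9 to 14.4 CPM in the same order of groups. Those of 5 endothelial markers were 8.51 to 11.6, 3.36 to 4.48 and 7.87 to 8.57 CPM, and those of 4 cholangiocyte markers 79.9 to 83.1, 68.4 to 72.1 and 50.04 to 52.6 CPM. The sums hide opposite moves after siYAP. Of 3 tested leukocyte markers, CSF1R was higher and PTPRC lower. Of 4 tested endothelial markers, PECAM1 and KDR were higher and VWF and CDH5 lower. After siTAZ, PTPRC, VWF and CDH5 were lower and 0 were higher in these lists. Of 2 tested cholangiocyte markers, SOX9 was higher after either siRNA. The part of these markers in the results was not tested. The share of reads that the counting assigned to no annotated feature was 6.01 to 7.49% in siYAP, 5.53 to 5.63% in siTAZ and 4.73 to 5.13% in siNT libraries. What separated the replicates is not stated in the labels; p-values then reflect the spread among these libraries and nothing wider.

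After siYAP, most of the 35 repair genes fell. In the siYAP libraries 23 of the 35, or 65.7%, were lower than in the siNT libraries at an adjusted p under 0.05 (edgeR's quasi-likelihood test, Benjamini-Hochberg adjustment over all 15560 genes), while 33.4% of all tested genes were lower. The 3 that rose, 8.57%, were ATM, RAD50 and PALB2, set against 33.8% of all tested genes, and 9 were not called. The median log2 fold change was -0.39 over the 35 genes, with a range of -1.49 to 0.46, and 0.02 over all tested genes. The called falls passed 1.5-fold in 12 genes and 2-fold in 3, namely FANCD2, EXO1 and BRIP1, and none of the rises passed 1.5-fold. Of all 15560 tested genes, 2616 called falls and 2882 called rises passed 1.5-fold, and 1396 called falls passed 2-fold. Here and below, ± after a level is the SD of 3 libraries and ± after a log2 fold change is its standard error. In these bulk libraries, fewer cells of a type and less RNA per cell cannot be told apart.

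After siTAZ, few of the same genes changed and the changes were small. Relative to siNT libraries, 7 of 35 were lower, or 20%, beside 18.2% of all tested genes, and 1 was higher, or 2.86%, beside 16.4%. The genes that fell were BRCA1, BRCA2, EXO1, XRCC2, XRCC3, FANCB and MSH6, and the gene that rose was RBBP8. The median log2 fold change was -0.04 (range -0.41 to 0.29) against 0.01 over all tested genes, and no member passed 1.5-fold in either direction. Few of all 15560 tested genes did: 635 called falls and 526 called rises passed 1.5-fold. The counts of called members changed when a library was left out, which also leaves fewer libraries to detect small differences. Lower genes numbered 3 without siNT replicate 2, 4 without siNT replicate 3 and 4 without siTAZ replicate 2. Higher genes numbered 0 without siNT replicate 3 and 2 without siTAZ replicate 1.

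Compared directly, siTAZ libraries held more of most of these transcripts than siYAP libraries. With siTAZ set against siYAP, 24 of 35 genes were higher, or 68.6%, where 33.0% of all tested genes were. The 6 that were lower, 17.1%, were ATM, RAD50, PALB2, BRCA2, XRCC2 and MSH6, where 33.2% of all tested genes were lower. The median log2 fold change was 0.41 (range -0.40 to 1.32), against -0.01 over all tested genes. This comparison and the siYAP comparison share the siYAP libraries, and the siYAP and siTAZ comparisons share the siNT libraries, so their values are given side by side and not counted as separate support.

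**Figure D1:**
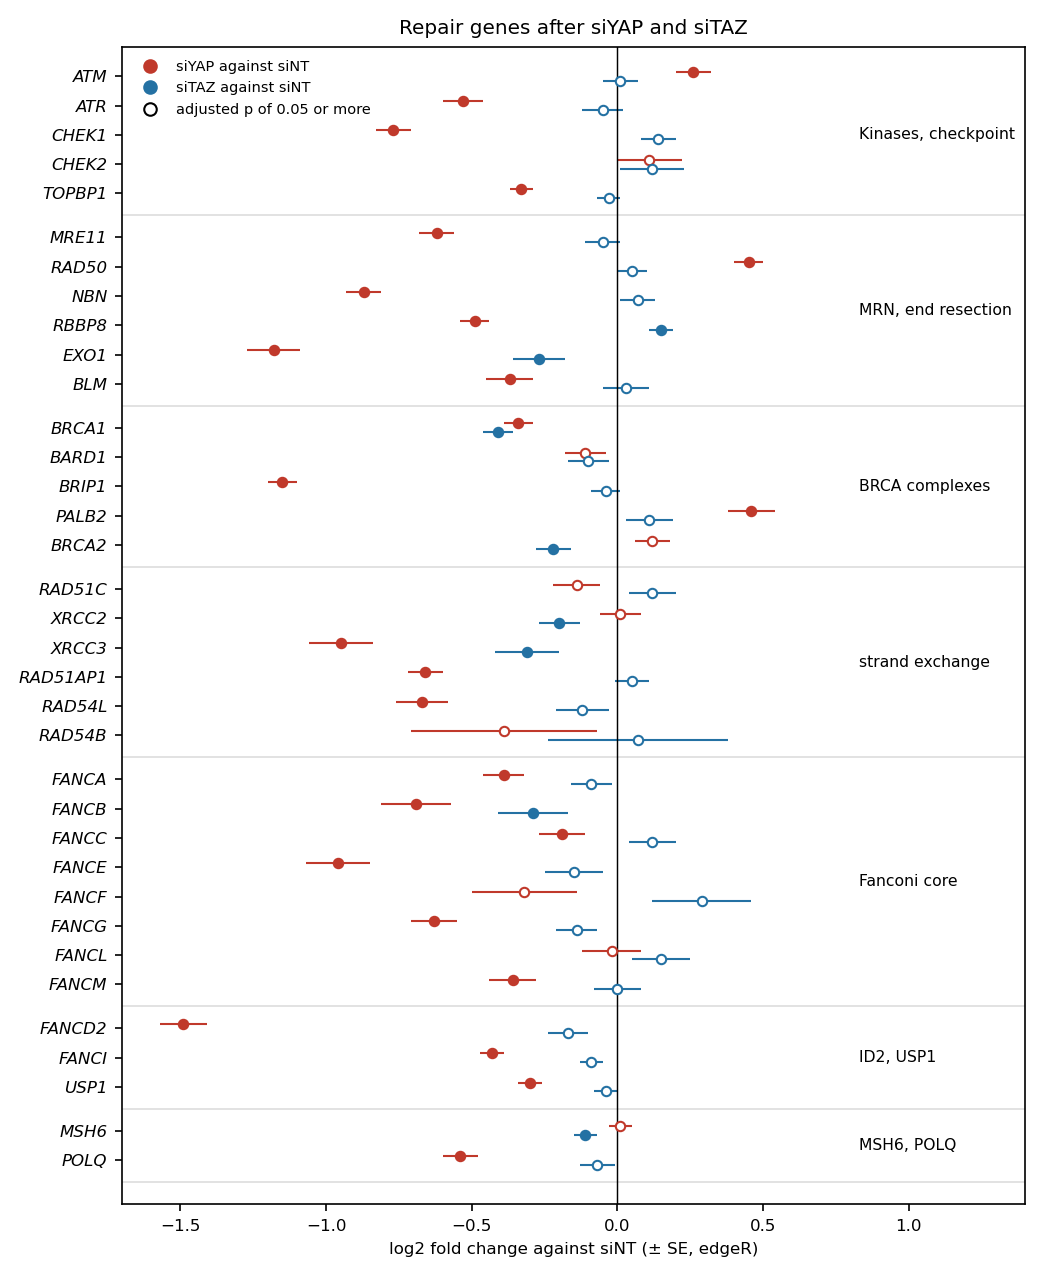
Log2 fold change with its standard error for each of the 35 repair genes, grouped by role, in siYAP against siNT libraries and in siTAZ against siNT libraries (edgeR, 3 libraries a group). Most siYAP values lie left of 0, down to -1.49 for FANCD2, with ATM, RAD50 and PALB2 to the right, whereas the siTAZ values lie between -0.41 and 0.29.

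**Figure D2:**
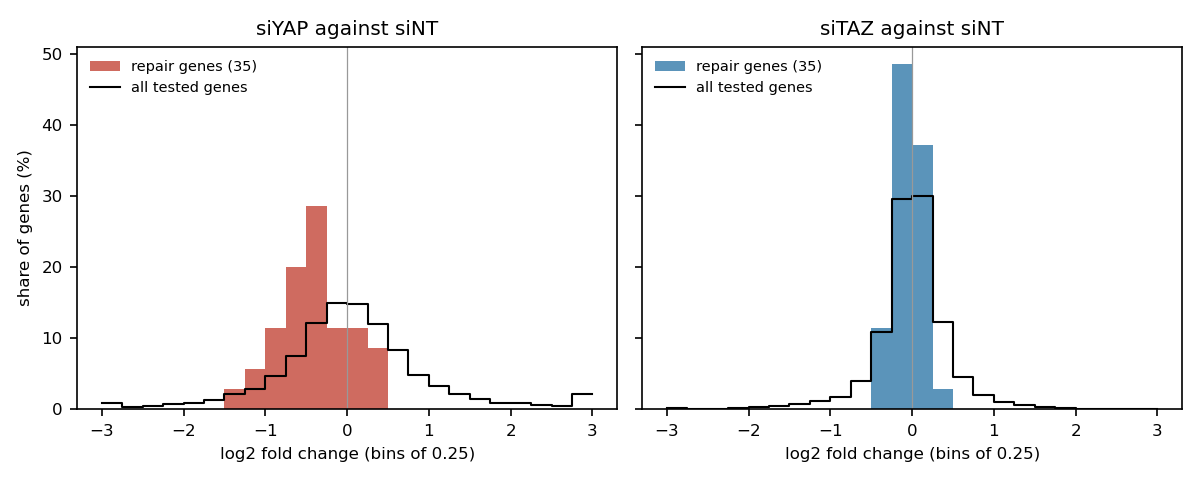
Distribution of log2 fold changes of the 35 repair genes and of all 15560 tested genes, as the share of genes in each interval, for siYAP against siNT and for siTAZ against siNT; the outermost intervals also hold all values beyond them. The repair genes are centred at a median of -0.39 after siYAP and -0.04 after siTAZ, where all tested genes have medians of 0.02 and 0.01.

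Promoter sequences are printed for the 3 genes with the deepest falls after siYAP and for RAD50, one of those that rose, because members that moved together can be compared there. The sequences are RefSeq promoter windows on GRCh38.p14, running 5′ to 3′ on the gene's strand from 250 bases before to 50 bases after the annotated start. Capitals mark the words TTTGGCGC, TTTCGCGC and TTTCCCGC, which match the E2F recognition sequence, and TTTGAA, the core of the cell cycle homology region bound by the MuvB complex, on either strand.
FANCD2 (chr3:10026187-10026486, plus strand): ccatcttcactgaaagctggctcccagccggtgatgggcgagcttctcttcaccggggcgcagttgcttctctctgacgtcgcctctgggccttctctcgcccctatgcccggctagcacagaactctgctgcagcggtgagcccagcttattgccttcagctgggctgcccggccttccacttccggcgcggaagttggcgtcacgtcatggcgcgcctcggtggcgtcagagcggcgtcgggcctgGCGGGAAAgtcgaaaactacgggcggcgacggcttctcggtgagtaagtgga
EXO1 (chr1:241847954-241848253, plus strand): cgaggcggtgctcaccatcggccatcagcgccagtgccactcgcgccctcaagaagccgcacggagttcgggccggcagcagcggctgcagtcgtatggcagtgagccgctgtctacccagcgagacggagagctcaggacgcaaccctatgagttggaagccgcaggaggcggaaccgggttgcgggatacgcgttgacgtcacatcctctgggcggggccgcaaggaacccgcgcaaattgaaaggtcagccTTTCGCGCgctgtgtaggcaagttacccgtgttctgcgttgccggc
BRIP1 (chr17:61863479-61863778, minus strand): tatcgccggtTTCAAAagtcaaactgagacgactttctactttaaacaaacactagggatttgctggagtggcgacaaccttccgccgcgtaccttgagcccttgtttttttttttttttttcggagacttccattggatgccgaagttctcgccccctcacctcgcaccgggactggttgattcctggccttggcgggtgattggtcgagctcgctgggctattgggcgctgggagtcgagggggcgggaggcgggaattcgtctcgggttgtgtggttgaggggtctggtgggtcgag
RAD50 (chr5:132556727-132557026, plus strand): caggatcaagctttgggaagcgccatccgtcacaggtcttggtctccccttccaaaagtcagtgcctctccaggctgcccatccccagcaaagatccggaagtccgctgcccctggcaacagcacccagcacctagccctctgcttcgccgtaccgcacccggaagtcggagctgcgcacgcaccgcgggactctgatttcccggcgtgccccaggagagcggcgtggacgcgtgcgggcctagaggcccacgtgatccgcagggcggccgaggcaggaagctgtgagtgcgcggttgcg
In FANCD2 the E2F word lies on the opposite strand across the start, and in EXO1 it begins at base 5 of the transcript; a further RefSeq start of EXO1 holds no such word. BRIP1 holds no E2F word and carries TTTGAA far upstream, at base -240, and RAD50 holds neither. Of the other genes that rose after siYAP, PALB2 holds neither word. ATM carries TTTGAA at base -20, while a further RefSeq start of ATM holds no such word.

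Over the list, 32 of the 35 genes had a RefSeq window; FANCI, NBN and RAD54B did not. At least 1 of the 3 E2F words, searched on both strands, was found in 6 of 32 genes, or 18.8%, namely EXO1, FANCC, FANCD2, MSH6, TOPBP1 and XRCC2, and in 5.46% of 11709 tested genes with a window. Among members the share did not separate those that fell after siYAP: 4 of 21 genes that fell held a word, or 19%, and 2 of 11 others did, or 18.2%. TTTGAA was found in 5 of 32 members, or 15.6%, namely ATM, BRIP1, FANCC, POLQ and USP1, and in 13.8% of tested genes. It was held by 4 of 21 genes that fell after siYAP and by 1 of 11 others. CCAAT, the NF-Y recognition word, was found in 16 of 32 members, or 50%, and in 42.7% of tested genes. A match is a description of the letters in these windows.

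The damage-signalling genes moved apart after siYAP. CHEK1, TOPBP1 and ATR fell, ATM rose and CHEK2 was not called, and none of these 5 was called after siTAZ. CHEK1 encodes the checkpoint kinase CHK1 that acts below ATR. It stood at 46.6, 43.7 and 41.6 CPM in the siYAP libraries, 79.6, 87.04 and 80.4 CPM in the siTAZ libraries and 74.98, 75.3 and 74.5 CPM in the siNT libraries. The siYAP values all lay below the siNT values, 1.703-fold lower (edgeR, log2 fold change -0.77 ± 0.06, adjusted p = 2.38e-18). The siTAZ libraries all lay above the siNT libraries, but the difference missed the threshold (log2 fold change 0.14 ± 0.06, adjusted p = 0.0513); without siTAZ replicate 1 the adjusted p was 0.0462. CHEK1 was higher in siTAZ than in siYAP libraries (log2 fold change 0.90 ± 0.06, adjusted p = 1.07e-21).

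ATM, the kinase that responds to double-strand breaks, had 107, 89.8 and 92.3 CPM in the siYAP libraries, 88.6, 79.9 and 74.5 CPM in the siTAZ libraries and 80.7, 80.96 and 79.8 CPM in the siNT libraries. All siYAP libraries exceeded all siNT libraries (edgeR, log2 fold change 0.26 ± 0.06, adjusted p = 9.99e-05), and the siTAZ values ran on both sides of the siNT values (log2 fold change 0.01 ± 0.06, adjusted p = 0.92). ATR, the kinase that responds to exposed single strands, averaged 36.1 ± 2.25 CPM in siYAP, 50.3 ± 4.66 CPM in siTAZ and 52.2 ± 1.61 CPM in siNT libraries, and fell after siYAP (log2 fold change -0.53 ± 0.07, adjusted p = 8.86e-10). TOPBP1, the scaffold that activates ATR, also fell after siYAP (log2 fold change -0.33 ± 0.04, adjusted p = 7.14e-11). CHEK2 encodes the kinase CHK2 below ATM, and had log2 fold changes of 0.11 after siYAP and 0.12 after siTAZ, with adjusted p-values of 0.404 and 0.459.

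The transcripts of the MRN complex diverged in the siYAP libraries. RAD50 rose while MRE11 and NBN fell, and the resection genes RBBP8, EXO1 and BLM fell as well. RAD50 encodes the ATPase that tethers the broken ends. Its levels were 151, 160.2 and 139 CPM in the siYAP libraries, 115, 111 and 115 CPM in the siTAZ libraries and 110.2, 111 and 108 CPM in the siNT libraries. The siYAP libraries lay above all others, 1.37-fold over siNT (edgeR, log2 fold change 0.45 ± 0.05, adjusted p = 1.13e-13), and the siTAZ libraries were close to the siNT libraries (log2 fold change 0.05 ± 0.05, adjusted p = 0.438). MRE11, the nuclease of the complex, averaged 47.2 ± 3.93, 70.3 ± 0.954 and 72.6 ± 1.39 CPM in siYAP, siTAZ and siNT libraries and fell after siYAP (log2 fold change -0.62 ± 0.06, adjusted p = 3.25e-14). NBN, the subunit that recruits ATM, averaged 39.3 ± 1.16, 75.2 ± 5.42 and 71.6 ± 2.77 CPM and was 1.82-fold lower after siYAP (log2 fold change -0.87 ± 0.06, adjusted p = 1.04e-19). RAD50 shares 8027 of its 9771 exon bases with other annotated genes, most of them with AC116366.3, a protein-coding annotation on the same strand, so its count is uncertain.

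EXO1, the exonuclease that extends resection, had 16.6, 15.9 and 15.02 CPM in the siYAP libraries, 28.3, 27.1 and 34.5 CPM in the siTAZ libraries and 32.2, 40.7 and 35.1 CPM in the siNT libraries. The siYAP libraries formed a separate low group, 2.27-fold below siNT (edgeR, log2 fold change -1.18 ± 0.09, adjusted p = 3.54e-17). The siTAZ libraries overlapped the siNT range and were lower on average (log2 fold change -0.27 ± 0.09, adjusted p = 0.0139), a call lost without siNT replicate 2 (adjusted p = 0.203), without siTAZ replicate 1 (0.0776) and without siTAZ replicate 2 (0.11). RBBP8 encodes CtIP, which starts resection together with MRE11. It stood at 87.8, 88.6 and 91.9 CPM in the siYAP libraries, 136, 142 and 142 CPM in the siTAZ libraries and 131, 127 and 119 CPM in the siNT libraries. The 3 groups did not overlap: RBBP8 was lowest after siYAP (log2 fold change -0.49 ± 0.05, adjusted p = 7.74e-15) and highest after siTAZ (log2 fold change 0.15 ± 0.04, adjusted p = 0.00502), and the direct test gave a difference of 0.64 ± 0.05 between siTAZ and siYAP (edgeR, adjusted p = 7.03e-20). Without siNT replicate 3 the rise after siTAZ had an adjusted p of 0.0764. BLM, the Bloom syndrome helicase, fell after siYAP (log2 fold change -0.37 ± 0.08, adjusted p = 3.03e-05).

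Of the BRCA1 and BRCA2 complexes, BRCA1 fell after either siRNA, BRIP1 fell after siYAP, PALB2 rose after siYAP and BRCA2 fell after siTAZ. BRCA1 encodes the ubiquitin ligase and scaffold that promotes resection and the steps after it. It was at 91.6, 95.1 and 87.6 CPM in the siYAP libraries, 86.6, 89.6 and 84.4 CPM in the siTAZ libraries and 121, 116 and 109.9 CPM in the siNT libraries. Both knockdown groups lay wholly below the siNT group, with fold changes of -0.34 ± 0.05 after siYAP and -0.41 ± 0.05 after siTAZ on the log2 scale (edgeR, adjusted p = 1.24e-08 and 2.29e-10). The difference between siTAZ and siYAP was -0.07 ± 0.05 and was not called (adjusted p = 0.186). BRCA1 had the largest fall of the list after siTAZ. Its partner BARD1 had log2 fold changes of -0.11 after siYAP and -0.10 after siTAZ, with adjusted p-values of 0.151 and 0.296; without siNT replicate 3 the siYAP value reached 0.0499.

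BRIP1, the helicase that binds BRCA1 and is also known as FANCJ, had 47.99, 44.9 and 46.1 CPM in the siYAP libraries, 104, 94.1 and 102 CPM in the siTAZ libraries and 103, 105 and 99.7 CPM in the siNT libraries. The siYAP libraries stood at less than every other library by a wide gap, 2.22-fold below siNT (edgeR, log2 fold change -1.15 ± 0.05, adjusted p = 2.22e-28), and the siTAZ and siNT libraries overlapped (log2 fold change -0.04 ± 0.05, adjusted p = 0.608). PALB2 encodes the protein that links BRCA1 to BRCA2. Its values were 36.4, 43.1 and 42.6 CPM in the siYAP libraries, 33.6, 30.2 and 31.7 CPM in the siTAZ libraries and 29.8, 30.03 and 28.98 CPM in the siNT libraries. All siYAP libraries were above all siNT libraries (log2 fold change 0.46 ± 0.08, adjusted p = 5.04e-07), and the siTAZ difference was not called (log2 fold change 0.11 ± 0.08, adjusted p = 0.331). BRCA2, the mediator of strand exchange, averaged 57.1 ± 1.86 CPM in siYAP, 44.9 ± 2.35 CPM in siTAZ and 52.4 ± 2.23 CPM in siNT libraries. It fell after siTAZ (log2 fold change -0.22 ± 0.06, adjusted p = 0.00422), was not called after siYAP (log2 fold change 0.12 ± 0.06, adjusted p = 0.0767) and was lower in siTAZ than in siYAP libraries (log2 fold change -0.35 ± 0.06, adjusted p = 2.58e-06). With upper-quartile scaling, BRCA2 was called higher after siYAP (log2 fold change 0.16, adjusted p = 0.024).

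**Figure D3:**
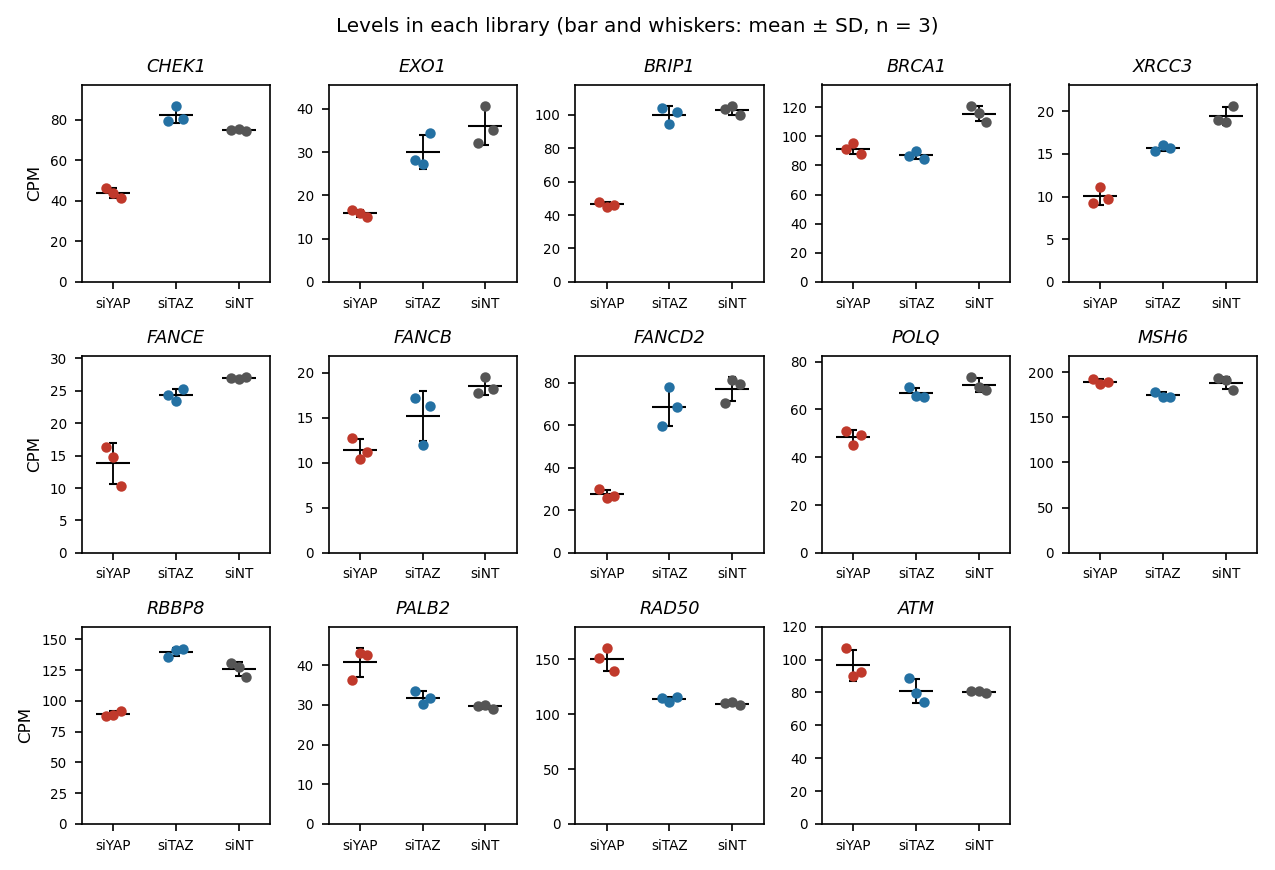
CPM in each library (points) with the group mean and SD (line and whiskers, n = 3) for the 14 repair genes whose values are given library by library, in siYAP, siTAZ and siNT groups, each panel with its own linear axis from 0. FANCD2, EXO1, BRIP1 and CHEK1 are lowest in the siYAP libraries, BRCA1 is low after either siRNA, and ATM, RAD50 and PALB2 are highest in the siYAP libraries.

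Among the strand-exchange factors, XRCC3, RAD51AP1 and RAD54L fell after siYAP, and XRCC2 and XRCC3 fell after siTAZ. XRCC3, which forms a pair with RAD51C, was at 9.26, 11.1 and 9.697 CPM in the siYAP libraries, 15.4, 16.1 and 15.7 CPM in the siTAZ libraries and 18.9, 18.8 and 20.7 CPM in the siNT libraries. The 3 groups did not overlap, with siYAP lowest and siTAZ between (log2 fold change -0.95 ± 0.11, adjusted p = 3.70e-11 after siYAP and log2 fold change -0.31 ± 0.11, adjusted p = 0.0211 after siTAZ, edgeR). The siTAZ call was lost without siNT replicate 3 (adjusted p = 0.104) and without siTAZ replicate 1 (0.0646). XRCC3 shares 5756 of its 7507 exon bases with KLC1 on the opposite strand, so its count is uncertain. RAD51AP1, which stimulates strand invasion, had a log2 fold change of -0.66 after siYAP (adjusted p = 5.98e-15), and RAD54L, a translocase that acts in strand exchange, had -0.67 (adjusted p = 4.90e-09).

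XRCC2, which acts in a complex with RAD51C, had log2 fold changes of 0.01 after siYAP (adjusted p = 0.928) and -0.20 after siTAZ (adjusted p = 0.0286). The siTAZ call ended without siNT replicate 2 (adjusted p = 0.093), siNT replicate 3 (0.0843) or siTAZ replicate 2 (0.24). Its lower level in siTAZ than in siYAP libraries (log2 fold change -0.21 ± 0.07, adjusted p = 0.0108) was lost without siTAZ replicate 2 (0.17) or siYAP replicate 3 (0.0633). RAD51C was not called after either siRNA, at -0.14 after siYAP and 0.12 after siTAZ, and was higher in siTAZ than in siYAP libraries (log2 fold change 0.25 ± 0.08, adjusted p = 0.00281); without siYAP replicate 1 its siYAP difference reached an adjusted p of 0.0453. RAD54B, a relative of RAD54L, averaged 1.62 ± 0.144, 2.24 ± 0.601 and 2.13 ± 0.627 CPM in siYAP, siTAZ and siNT libraries. This was the lowest level of the list, 3139 of its 5313 exon bases are shared with FSBP, and a difference was not detectable at this depth (log2 fold change -0.39 ± 0.32 after siYAP, adjusted p = 0.283).

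In the Fanconi core complex, the multi-subunit ubiquitin ligase, 6 of 8 genes fell after siYAP and 0 rose, with a median log2 fold change of -0.38, where 33.4% of all tested genes fell. After siTAZ 1 of 8 fell, or 12.5%, close to the 18.2% of all tested genes, and the median was -0.04. FANCE, the subunit that contacts FANCD2, had 16.4, 14.7 and 10.3 CPM in the siYAP libraries, 24.4, 23.4 and 25.3 CPM in the siTAZ libraries and 26.9, 26.8 and 27.2 CPM in the siNT libraries. All siYAP libraries lay below all siNT libraries, with the third siYAP library lowest (edgeR, log2 fold change -0.96 ± 0.11, adjusted p = 5.57e-12), and the siTAZ libraries lay just under the siNT libraries without being called (log2 fold change -0.15 ± 0.10, adjusted p = 0.267). FANCB, a subunit of the catalytic module encoded on the X chromosome, had 12.7, 10.4 and 11.2 CPM in the siYAP libraries, 17.2, 12.01 and 16.3 CPM in the siTAZ libraries and 17.7, 19.6 and 18.2 CPM in the siNT libraries. It was lower in every siYAP library than in any siNT library (log2 fold change -0.69 ± 0.12, adjusted p = 7.09e-07). The siTAZ call was near the threshold (log2 fold change -0.29 ± 0.12, adjusted p = 0.0478) and was lost without siNT replicate 1 (adjusted p = 0.063), siNT replicate 2 (0.166), siNT replicate 3 (0.0817) or siTAZ replicate 2 (0.406). It was also lost with DESeq2 (0.0821), upper-quartile scaling (0.068) and no filter on low counts (0.0542), in all under 9 of 16 alternatives.

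The scaffold subunits FANCA and FANCG and the translocase FANCM also fell after siYAP, with log2 fold changes of -0.39, -0.63 and -0.36 (edgeR, adjusted p = 1.10e-06, 5.02e-11 and 0.000146). FANCC, a core subunit, had the smallest called fall, -0.19 (adjusted p = 0.0249). The call was lost without siYAP replicate 1 (0.0571) or siYAP replicate 3 (0.0601), and with upper-quartile scaling (0.063). FANCL, the ubiquitin ligase subunit itself, was at -0.02 after siYAP and 0.15 after siTAZ, with adjusted p-values of 0.904 and 0.273. FANCF, the adaptor subunit, was at -0.32 after siYAP (adjusted p = 0.113) and 0.29 after siTAZ (adjusted p = 0.204), and was higher in siTAZ than in siYAP libraries (log2 fold change 0.60 ± 0.17, adjusted p = 0.00201). Without siYAP replicate 3 the siYAP difference of FANCF reached an adjusted p of 0.0364.

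The substrate pair of the core complex and its deubiquitinase all fell after siYAP, and none passed the threshold after siTAZ in the fit reported, where FANCI and FANCD2 lay near it. FANCD2 showed the largest fall of all 35 genes. Its levels were 30.1, 25.8 and 26.5 CPM in the siYAP libraries, 59.6, 78.2 and 68.6 CPM in the siTAZ libraries and 70.7, 81.3 and 79.5 CPM in the siNT libraries. The siYAP libraries lay far below the rest, 2.81-fold or 64.4% below siNT (edgeR, log2 fold change -1.49 ± 0.08, adjusted p = 2.11e-16). The siTAZ and siNT ranges overlapped (log2 fold change -0.17 ± 0.07, adjusted p = 0.0866), although the siTAZ difference was called without siNT replicate 1 (adjusted p = 0.0237) and without siTAZ replicate 2 (0.00216), with limma-voom (0.0494) and with no filter on low counts (0.0258). FANCI, its partner, averaged 151 ± 3.36, 191 ± 4.59 and 204 ± 1.01 CPM in siYAP, siTAZ and siNT libraries, with log2 fold change -0.43 ± 0.04, adjusted p = 1.42e-15 after siYAP and log2 fold change -0.09 ± 0.04, adjusted p = 0.0523 after siTAZ. The siTAZ difference of FANCI was called lower with DESeq2 (adjusted p = 0.0408), RLE scaling (0.0402), the compared groups alone (0.0445) and limma-voom (0.0467). USP1 removes ubiquitin from the pair, and its log2 fold change was -0.30 after siYAP (adjusted p = 1.51e-09) and -0.04 after siTAZ (adjusted p = 0.457).

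The last pair of the list was split. POLQ, the polymerase of theta-mediated end joining, fell after siYAP, and MSH6, which recognises base mismatches, did not. POLQ had 50.9, 45.2 and 49.5 CPM in the siYAP libraries, 69.3, 65.7 and 65.4 CPM in the siTAZ libraries and 73.7, 69.2 and 68.2 CPM in the siNT libraries. Its siYAP libraries were below all others (edgeR, log2 fold change -0.54 ± 0.06, adjusted p = 5.54e-12), and the siTAZ libraries overlapped the siNT libraries (log2 fold change -0.07 ± 0.06, adjusted p = 0.356). MSH6 had 192, 187 and 189 CPM in the siYAP libraries, 178, 173 and 173 CPM in the siTAZ libraries and 193, 191 and 180.0 CPM in the siNT libraries. It was not called after siYAP (log2 fold change 0.01 ± 0.04, adjusted p = 0.799), and after siTAZ it was lower by a small amount (log2 fold change -0.11 ± 0.04, adjusted p = 0.0285). That call was lost without siNT replicate 1 (adjusted p = 0.154), siNT replicate 2 (0.108), siTAZ replicate 2 (0.0836) or siTAZ replicate 3 (0.0843), and with upper-quartile scaling (0.0698). MSH6 was lower in siTAZ than in siYAP libraries (log2 fold change -0.12 ± 0.04, adjusted p = 0.00652), a call lost with no filter on low counts (adjusted p = 0.0543).

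Ratios of counts within a library do not depend on how libraries are scaled, and they show how partners shifted against each other. These pairs were chosen after their values were seen and carry no test. The RAD50 to MRE11 count ratio was 2.94, 3.43 and 3.197 in the siYAP libraries, 1.61, 1.58 and 1.66 in the siTAZ libraries and 1.55, 1.5004 and 1.49 in the siNT libraries. The RAD50 to NBN ratio was 3.93, 3.94 and 3.59 in the siYAP libraries, 1.42, 1.47 and 1.66 in the siTAZ libraries and 1.504, 1.62 and 1.48 in the siNT libraries. Both ratios were higher in each siYAP library than in any other library. Both also rest on the RAD50 count, which is uncertain because most of its exon bases are shared with other annotated genes. FANCD2 to FANCI was 0.197, 0.168 and 0.181 in the siYAP libraries, 0.311, 0.4203 and 0.352 in the siTAZ libraries and 0.347, 0.401 and 0.389 in the siNT libraries, and here the siYAP libraries were the lowest. ATM to ATR, the pair of apical kinases, was 2.804, 2.48 and 2.73 in the siYAP libraries, 1.65, 1.53 and 1.66 in the siTAZ libraries and 1.58, 1.58 and 1.48 in the siNT libraries. CHEK1 to CHEK2, the pair of kinases below them, was 2.92, 2.59 and 3.2 in the siYAP libraries, 5.39, 5.28 and 5.34 in the siTAZ libraries and 4.95, 5.43 and 5.46 in the siNT libraries. The siYAP libraries thus held relatively more ATM and relatively less CHEK1 than the other libraries. BRCA1 to BARD1 was 2.28, 2.24 and 2.196 in the siYAP libraries, 2.12, 2.17 and 2.02 in the siTAZ libraries and 2.72, 2.48 and 2.66 in the siNT libraries, with the siNT libraries highest. PALB2 to BRCA2 did not set siYAP apart. It ran from 0.631 to 0.774 in siYAP, 0.635 to 0.770 in siTAZ and 0.542 to 0.583 in siNT libraries. NBN to MRE11 and FANCE to FANCL were also computed and were lowest in the siYAP libraries.

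**Figure D4:**
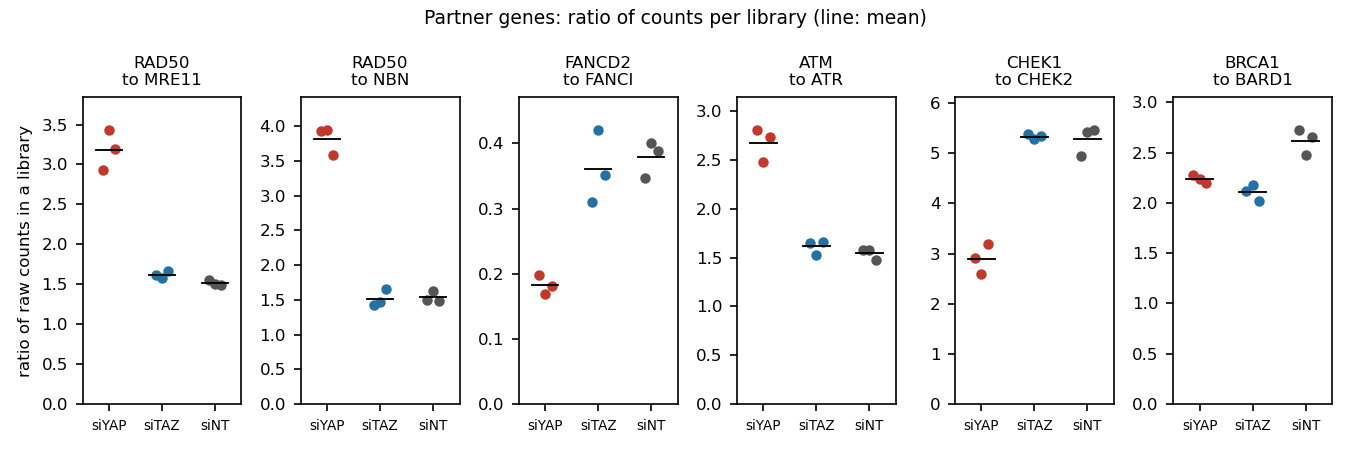
Ratio of raw counts of partner genes within each library (points) and group mean (line), for siYAP, siTAZ and siNT libraries, on linear axes from 0. The RAD50 to MRE11 ratio is 2.94 to 3.43 in siYAP libraries and 1.49 to 1.66 in all others, and the FANCD2 to FANCI ratio is 0.168 to 0.197 in siYAP libraries and 0.311 to 0.420 in the others. The RAD50 count is uncertain, as most of its exon bases are shared with other annotated genes.

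Per kilobase of annotated exon, USP1 had the highest level of the list in siNT libraries, and in the siYAP and siTAZ libraries as well: 36.5 ± 1.604 CPM per kb in siYAP, 43.8 ± 1.26 in siTAZ and 45.05 ± 1.76 in siNT libraries (SD, n = 3 each). TOPBP1 had 28.7 ± 1.45, FANCI 26.2 ± 0.131, RAD51AP1 25.8 ± 0.2701 and RBBP8 24.7 ± 1.15 CPM per kb in siNT libraries. XRCC3, FANCF and RAD54B were the lowest, at 2.59 ± 0.141, 2.301 ± 0.233 and 0.401 ± 0.118 CPM per kb. In siYAP libraries BRIP1 had 5.796 ± 0.196 and RAD50 15.4 ± 1.07 CPM per kb, and in siNT libraries 12.8 ± 0.3398 and 11.2 ± 0.156. Exon lengths are those of all annotated transcripts merged, so genes with many long isoforms are understated. They include bases shared with other genes, 5756 of 7507 in XRCC3, 3139 of 5313 in RAD54B and 8027 of 9771 in RAD50. The levels per kb of these 3 genes are therefore uncertain. Of the 35 genes, 20 share exon bases with another annotated gene, and the strand setting of the counts is not given. The 3 that rose after siYAP are among the 20. The shared part is most of RAD50 but only 359 of 23972 bases in ATM and 86 of 4747 in PALB2. Over the 15 genes with no overlap at all, 11 were lower and 0 higher after siYAP, and 4 were lower and 0 higher after siTAZ. The median after siYAP was -0.54. Of all tested genes, 33.4% were lower after siYAP and 18.2% after siTAZ. This cut removes ATM, RAD50 and PALB2, so the 0 higher after siYAP follows from it.

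Lists of other repair genes are set beside the background of 33.8% higher and 33.4% lower among all tested genes after siYAP, and 16.4% higher and 18.2% lower after siTAZ. Of 29 tested genes of homologous recombination outside the list, 7 were higher and 14 lower after siYAP (median log2 fold change -0.17), and 4 were higher and 7 lower after siTAZ (median 0.06). RMI2, a subunit of the complex that BLM forms to dissolve joined DNA, averaged 4.76 ± 0.946 CPM in siYAP and 19.4 ± 0.657 CPM in siNT libraries (edgeR, log2 fold change -2.02 ± 0.13, adjusted p = 1.59e-21). MCM8, part of a helicase that acts in recombination, fell (log2 fold change -0.47 ± 0.04, adjusted p = 1.25e-14), and the helicases RECQL5 (log2 fold change 0.56 ± 0.07, adjusted p = 3.73e-10) and RECQL (log2 fold change 0.24 ± 0.04, adjusted p = 8.95e-07) rose. RPA1, a subunit of the protein that coats single strands, fell after siTAZ (log2 fold change -0.16 ± 0.04, adjusted p = 0.000245), as did RECQL (log2 fold change -0.17 ± 0.04, adjusted p = 0.000772).

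Of 15 other Fanconi genes, 7 were higher and 7 lower after siYAP, and 2 were higher and 5 lower after siTAZ, with a median log2 fold change of -0.00 both times. REV3L, the catalytic subunit of translesion polymerase zeta, rose after siYAP and after siTAZ (0.34 and 0.28, edgeR adjusted p = 1.77e-07 and 2.42e-05), while its partner MAD2L2 fell after either (-0.55 and -0.24, adjusted p = 1.67e-11 and 0.00116). WDR48, the activator of USP1, fell after siYAP (log2 fold change -0.60 ± 0.06, adjusted p = 5.27e-13), and ERCC1, a subunit of a crosslink-unhooking nuclease, rose (log2 fold change 0.30 ± 0.07, adjusted p = 5.92e-05). After siTAZ the nuclease FAN1 rose (log2 fold change 0.16 ± 0.06, adjusted p = 0.0389) and the scaffold SLX4 fell (log2 fold change -0.32 ± 0.09, adjusted p = 0.00204).

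Of 15 genes of TP53BP1 and ubiquitin signalling at breaks, 5 rose and 4 fell after siYAP and 1 rose and 2 fell after siTAZ. BABAM1, a subunit of the BRCA1-A complex, had the largest fall of those named, at -1.54 ± 0.06 after siYAP (edgeR, adjusted p = 1.12e-33), and the histone H2AX was at -0.74 ± 0.04 (adjusted p = 6.94e-22). The ubiquitin ligase RNF168 rose after siYAP (log2 fold change 0.47 ± 0.07, adjusted p = 6.69e-09). TP53BP1, which protects ends from resection, rose after siYAP (log2 fold change 0.30 ± 0.04, adjusted p = 1.91e-08) and fell after siTAZ (log2 fold change -0.17 ± 0.05, adjusted p = 0.00168). RIF1, which acts with TP53BP1, fell after siTAZ (log2 fold change -0.29 ± 0.05, adjusted p = 2.49e-06), and SHLD2, a shieldin subunit, rose (log2 fold change 0.26 ± 0.07, adjusted p = 0.0012).

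Non-homologous end joining, which rejoins ends without a template, had 3 of 10 genes higher and 5 lower after siYAP and 1 higher and 4 lower after siTAZ. The Ku subunits fell in both comparisons, XRCC5 by 0.79 after siYAP and 0.31 after siTAZ and XRCC6 by 0.75 and 0.19 on the log2 scale (edgeR, adjusted p = 7.61e-31, 1.05e-11, 3.00e-29 and 5.16e-06). XRCC4, the partner of ligase IV, and the polymerase POLL rose after siYAP (0.31 and 0.38, adjusted p = 0.0191 and 0.00363), and the nuclease DCLRE1C rose after siTAZ (log2 fold change 0.32 ± 0.09, adjusted p = 0.00211).

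Of the 6 mismatch repair genes other than MSH6, 4 fell and 1 rose after siYAP (median -0.55), and 0 rose and 1 fell after siTAZ (median 0.04). MSH3, which recognises insertion and deletion loops, fell after siYAP (edgeR, log2 fold change -0.73 ± 0.08, adjusted p = 9.15e-13), and MLH3, an endonuclease subunit, rose (log2 fold change 0.75 ± 0.10, adjusted p = 1.93e-09). In base excision and single-strand break repair, 9 of 16 genes fell and 2 rose after siYAP and 4 fell and 3 rose after siTAZ. PARP1, the sensor of strand breaks, fell in both (-1.06 and -0.19, adjusted p = 5.26e-35 and 1.79e-05), and the uracil glycosylase UNG fell after siYAP (log2 fold change -0.75 ± 0.05, adjusted p = 1.19e-19). The glycosylase SMUG1 rose after siYAP (log2 fold change 0.60 ± 0.10, adjusted p = 2.20e-07) and after siTAZ (log2 fold change 0.31 ± 0.10, adjusted p = 0.0103), and the scaffold XRCC1 rose (log2 fold change 0.24 ± 0.08, adjusted p = 0.0116) and the flap nuclease FEN1 fell (log2 fold change -0.26 ± 0.04, adjusted p = 4.00e-08) after siTAZ.

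Nucleotide excision repair had 5 of 14 genes higher and 5 lower after siYAP, and 3 higher and 3 lower after siTAZ. The damage sensors DDB2 and XPC, which also stand in the p53 target list, rose after siYAP (1.44 and 1.08, edgeR adjusted p = 3.77e-26 and 7.34e-22), and DDB2 and the nuclease ERCC5 rose after siTAZ (0.43 and 0.22, adjusted p = 1.22e-05 and 0.00324). RAD23B, which stabilises XPC, fell in both comparisons (-0.99 and -0.24, adjusted p = 2.01e-35 and 1.65e-08). The helicase ERCC2 fell after siYAP (log2 fold change -0.91 ± 0.06, adjusted p = 9.40e-23).

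Cell cycle genes moved alongside the repair genes. The summed level of the 35 repair genes was 1906 ± 33.8 CPM in siYAP, 2322 ± 16.2 CPM in siTAZ and 2400.3 ± 43.2 CPM in siNT libraries (SD, n = 3 each). An 18-gene S phase list summed to 2869 ± 71.7, 3466 ± 61.96 and 3885 ± 31.6 CPM in the same order. A 16-gene G2/M list summed to 2037 ± 61.3, 4031 ± 25.7 and 4483 ± 93.9 CPM. For the repair genes and both cycle lists the siYAP libraries were lowest and the siTAZ libraries stood between, with no overlap between groups. The gap between siTAZ and siNT was narrowest for the repair genes, where the highest siTAZ sum was 2341 CPM and the lowest siNT sum 2369 CPM.

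Of the S phase genes, 15 fell and 3 rose after siYAP (median log2 fold change -0.39), and 10 fell and 2 rose after siTAZ (median -0.18). All 16 G2/M genes fell after siYAP (median -1.35) and 11 fell after siTAZ (median -0.18). Of all tested genes, 33.4% fell and 33.8% rose after siYAP, and 18.2% fell and 16.4% rose after siTAZ. RRM1, a ribonucleotide reductase subunit, was at -1.91 after siYAP and -0.55 after siTAZ (edgeR, adjusted p = 5.48e-44 and 2.58e-17), and MCM7, a subunit of the replicative helicase, was at -0.85 after siYAP (adjusted p = 5.57e-33). RRM2, the small subunit that pairs with RRM1, fell after siTAZ (log2 fold change -0.37 ± 0.04, adjusted p = 1.73e-13). CCNB1, the mitotic cyclin B1, was at -1.79 after siYAP and -0.28 after siTAZ (adjusted p = 1.41e-47 and 1.13e-09), BIRC5 (survivin) at -1.97 after siYAP (adjusted p = 3.60e-45) and MKI67, the proliferation antigen, at -0.33 after siTAZ (adjusted p = 7.72e-10). E2F1, an activator of S phase genes, rose after siYAP (log2 fold change 0.65 ± 0.04, adjusted p = 3.35e-22) and after siTAZ (log2 fold change 0.18 ± 0.04, adjusted p = 0.000409); the histone mRNA binding protein SLBP rose after siYAP (log2 fold change 0.18 ± 0.04, adjusted p = 8.92e-05) and the replication clamp PCNA after siTAZ (log2 fold change 0.13 ± 0.03, adjusted p = 0.00178). The part of cell cycle stage in the repair genes' levels was not tested.

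The p53 target list of 16 genes summed to 3014 ± 77.9 CPM in siYAP, 754 ± 22.8 CPM in siTAZ and 591 ± 12.8 CPM in siNT libraries. All 16 rose after siYAP (median 2.18), and 13 rose and 1, TNFRSF10B, fell after siTAZ (median 0.56). Among all tested genes, 33.8% rose and 33.4% fell after siYAP, and 16.4% rose and 18.2% fell after siTAZ. MDM2, the p53 ubiquitin ligase, was at 2.84 ± 0.05 after siYAP (edgeR, adjusted p = 1.65e-53). BTG2, an antiproliferative gene, was at 4.33 after siYAP and 1.60 after siTAZ (adjusted p = 2.62e-47 and 3.13e-19), and CDKN1A, the cyclin-dependent kinase inhibitor p21, was at 1.57 ± 0.05 after siTAZ (adjusted p = 5.51e-19). Of 16 genes for E2F, pocket protein, MuvB and B-MYB regulators, 6 were higher and 6 lower after siYAP (median -0.02), and 3 were higher and 3 lower after siTAZ (median 0.05). These shares, 37.5% each way after siYAP and 18.75% each way after siTAZ, were near those of all tested genes. MYBL2 (B-MYB) and FOXM1, activators of G2/M genes, fell after siYAP (-1.03 and -0.94, adjusted p = 8.16e-36 and 2.68e-32), and the repressor E2F7, itself a p53 target, rose (log2 fold change 1.17 ± 0.05, adjusted p = 2.27e-30). After siTAZ E2F7 rose (log2 fold change 0.23 ± 0.05, adjusted p = 0.000174) and the E2F partner TFDP1 (log2 fold change -0.37 ± 0.03, adjusted p = 3.06e-14) and MYBL2 (log2 fold change -0.35 ± 0.03, adjusted p = 5.69e-13) fell. How far these changes bear on the repair genes was not tested.

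**Figure D5:**
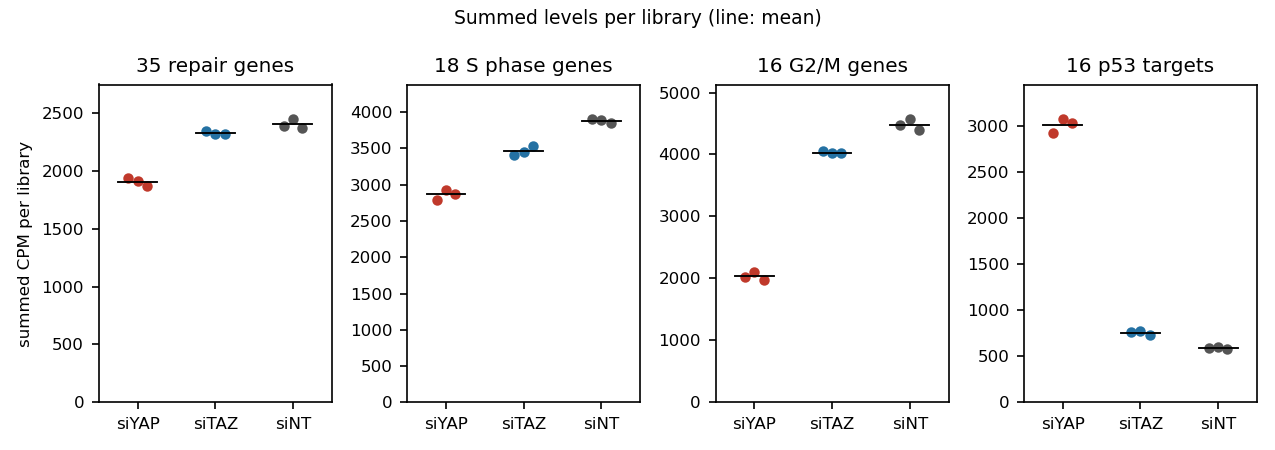
Summed CPM per library (points) and group mean (line) of the 35 repair genes, the 18 S phase genes, the 16 G2/M genes and the 16 p53 targets, in siYAP, siTAZ and siNT libraries, on linear axes from 0. The repair sum is lowest in the siYAP libraries, as are the S phase and G2/M sums, and the p53 target sum is highest there, with a mean of 3014 CPM.

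Words in 3′ UTRs that an earlier look at these libraries had related to either siRNA were counted in the repair genes. The words were chosen on the same data, so the counts are a description. TGGATAA was found in the annotated 3′ UTRs of 2 of 35 members, RAD50 and BRIP1, or 5.71%, and in 9.9% of 12903 tested genes. Among the 23 members that fell after siYAP it was found in 1, or 4.35%. ATGAAC was found in 7 of 35, or 20%, and in 26.2% of tested genes. Whether any siRNA acted on these transcripts directly was not tested.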

How the data were processed

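Messenger RNA of LX2 cells was sequenced from 9 libraries, 3 each after siYAP, siTAZ and siNT, and groups follow the labels. Each deposited file gives unnormalized counts of reads for every Ensembl gene in a library. Per the submitters' processing notes, STAR 2.5.0c and HTSeq were used along with Picard, SAMtools and Trim Galore; the build named there is mm10, a mouse build, although the gene IDs are human, so build, annotation and strand setting are not given in the sources used here. Symbols came from a gene name table that held 36366 of the 36601 IDs, and coordinates and exon overlaps from GENCODE 29 on GRCh38.

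The count test was edgeR 4.0.16 (R 4.3.3): filterByExpr (minimum count 10, minimum total count 15), TMM scaling, and a robust quasi-likelihood fit over all 9 libraries with two-sided tests of siYAP against siNT, siTAZ against siNT and siTAZ against siYAP. P-values were adjusted over 15560 genes by the Benjamini-Hochberg method and called under 0.05, and CPM were computed with TMM-scaled sizes. Standard errors were back-calculated as the absolute log2 fold change divided by the square root of the test's F statistic. They therefore restate the test and are not a separate measure of spread. The fit was also run on simulated counts drawn from siNT means, in which few genes were changed. That setting differs from these libraries, where many genes were called, so it does not measure the rate of false calls here. Levels per kilobase divide CPM by merged exon length. No 2 libraries agreed within sampling noise.

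Members, role groups, gene lists, words and tests were chosen with earlier results of these data known. Values are given library by library for the called member with the largest change in each of 7 role groups and in each comparison with siNT, for members called in opposite directions, and for up to 3 rises a comparison. In the 11 other lists, up to 2 genes a direction and comparison with the smallest p are named; some of these are not reported here. The alternatives tried were upper-quartile and RLE scaling, a stricter filter (at least 3 libraries with a CPM of 1 or more) or none, a block for replicate number, the compared groups alone, DESeq2 1.42.0, limma-voom (limma 3.58.1), each library left out, an adjusted p under 0.01 and a test against a fold of 1.5. Leaving out members with exon overlaps, or with TGGATAA in the 3′ UTR, was added after seeing the data.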

Additional observations from a re-analysis of the deposited data

Results flagged for a closer look

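RBBP8, which encodes the resection factor CtIP, moved in opposite directions in the comparisons with siNT. Every siYAP library lay below every siNT library and every siTAZ library lay above them. The test of the difference itself gave a log2 fold change of 0.64 ± 0.05 for siTAZ against siYAP (edgeR, adjusted p = 7.03e-20, higher in 3 of 3 siTAZ libraries). The fall after siYAP was -0.49 and the rise after siTAZ 0.15, and the rise was lost without siNT replicate 3 (adjusted p = 0.0764). A cause was not tested.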

How the results depend on the processing

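Over the 14 genes given library by library and 16 alternatives, no called change turned its direction: 217 of 224 siYAP checks, 185 of 224 siTAZ checks and 215 of 224 checks of siTAZ against siYAP kept their side of the threshold, and 11 siTAZ checks newly passed it. Differences near 0 that were never called did change sign: MSH6 after siYAP, at 0.01, was -0.01 with no filter and without siYAP replicate 1 and -0.03 without siNT replicate 3, and ATM after siTAZ, at 0.01, was -0.06 without siTAZ replicate 1. When each library was left out in turn, siYAP counts ran from 3 to 3 higher and 23 to 24 lower with medians of -0.44 to -0.34. SiTAZ counts ran from 0 to 2 higher and 3 to 6 lower with medians of -0.07 to -0.02, and siTAZ against siYAP gave 24 to 24 higher and 5 to 6 lower with medians of 0.37 to 0.43. Against a fold of 1.5 the counts were 0 higher and 7 lower after siYAP, 0 and 0 after siTAZ, and 7 and 0 for siTAZ against siYAP. Of all 15560 tested genes, that test called 1957 higher and 1895 lower after siYAP. It called 115 and 227 after siTAZ, and 1736 and 1897 for siTAZ against siYAP. At an adjusted p under 0.01, 2 members were lower after siTAZ. The number of all tested genes under that threshold was not counted. The siYAP median was -0.42 without a filter and -0.36 under upper-quartile scaling. CHEK1, at an adjusted p of 0.0513 in the fit reported, brought the count of members higher after siTAZ to 2 in the fit over the compared groups alone, limma-voom, the stricter filter and upper-quartile scaling.

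Without the 20 members with exon overlaps (15 left), 0 were higher and 11 lower after siYAP with a median of -0.54, 0 and 4 after siTAZ, and 12 and 2 for siTAZ against siYAP. Fewer genes are counted there by construction, and the members that rose after siYAP are all among those left out. The labels do not say whether replicate numbers pair the libraries. No shared effect of replicate number was seen, as deviations of same-numbered libraries correlated at -0.031 to 0.014. With the replicate block in edgeR, 2 members were higher and 9 lower after siTAZ, FANCD2 (adjusted p = 0.0436) and FANCI (0.0499) being added to those lower. Of all 15560 tested genes, 2552 were higher and 2861 lower with that block. Depth limits RAD54B most, the member with the lowest counts, and siTAZ differences near the threshold rest on 3 libraries a group.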
